A study of Mus musculus with 15 samples.

Results

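Aminoacyl-tRNA synthetases are the enzymes that join each amino acid to its transfer RNA. The 36 genes described here were the named synthetase genes of the mouse, 20 for enzymes of the cytosol and 16 for enzymes of the mitochondrion, among 21887 protein-coding genes with annotated ends. For each gene, the ATAC-seq peaks within 1 kb of either annotated gene end were read (gene-end peaks; genome build mm10), and the highest-scoring one stood for the gene. ATAC-seq marks open chromatin by the cuts of a transposase, and each peak carried the score the authors deposited for it. That score is given below as a percentile within its own list, the share of the list's peaks with a score at or below it.

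The study compared mouse models of the kinase mTOR in adult haematopoietic stem cells (HSC) sorted from mice given poly(I:C), an inducer of interferon. The KO mice were Mx1-Cre+/-;mTORflox/flox, the KI mice Mx1-Cre+/-;mTORflox/knockin and the WT control mice Mx1-Cre-/-;mTORflox/flox. Mx1-Cre is switched on by interferon, and it acts in many cell types besides the HSC. Cre was present in both mutants and absent from WT, so that the effects of Cre and of the Mtor alleles cannot be told apart here. There was 1 ATAC-seq library per genotype, made from 50000 cells, and the 12 RNA-seq samples of the series were not analysed here. Per the labels, the KO and WT data were re-analysed and nothing of the kind is said of KI, so that KI and any batch cannot be told apart. With 1 library per genotype no difference between genotypes has a replicate check or a test, and a missing peak means only that none was listed. Read depth is unknown.

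The lists held 19189 peaks in KO, 28391 in KI and 17316 in WT. As a check of the cell type, 5 of 12 HSC marker genes had a gene-end peak in KO, 8 in KI and 9 in WT. Slamf1, Gata2 and Fgd5 had none in any list, while Mecom, Hlf, Meis1, Tal1 and Kit had one in all 3. Over all protein-coding genes, 44.1% had a gene-end peak in KO, 51.4% in KI and 44.2% in WT. For each other cell type, more markers had a gene-end peak in KI than in WT. KO had more than WT among erythroid, T and NK, and endothelial and stromal markers only. Erythroid markers had peaks at 2, 2 and 0 of 6 genes in KO, KI and WT, granulocyte and monocyte markers at 0, 3 and 0 of 6, B-lymphoid markers at 0, 2 and 1 of 5, T and NK markers at 2, 2 and 0 of 5, and endothelial and stromal markers at 2, 3 and 0 of 4. In such bulk libraries, fewer cells with an open site and fewer cuts per cell cannot be told apart. The part of cell composition, Cre or list length in the differences below was not tested.

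A cytosolic synthetase charges the transfer RNAs that cytosolic ribosomes use, and a mitochondrial one, also encoded in the nucleus, is imported to serve the ribosomes of that organelle. Most amino acids have a separate gene for each compartment, whereas Gars and Kars each give rise to both forms, and Eprs encodes a fused enzyme for glutamate and proline. In mammals 8 of the cytosolic members (Dars, Eprs, Iars, Kars, Lars, Mars1, Qars and Rars) sit in the multi-synthetase complex. Cytosolic synthetase genes are textbook targets of the transcription factor ATF4 in amino acid shortage, and mTORC1 is known to raise the translation of Atf4 mRNA.

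The promoters of 6 members on which the results below turn are shown first, from RefSeq's promoter table (GRCm38.p6, which mm10 is built on), as the 180 bases before the annotated start, 5′ to 3′ on the strand of the gene. Capitals mark matches to the letters TGATGNAA (a composite site of ATF4 with a C/EBP partner), CACGTG (the E-box), GCGCNTGCG (NRF1, nuclear respiratory factor 1), CCGGAAGT (ETS) and AAGATGGCG (YY1), on either strand. Aars (chr8:111033662-111033841, plus strand), Gars (chr6:55037821-55038000, plus strand) and Tars (chr15:11399659-11399838, minus strand) are shown for the ATF4 composite. Sars (chr3:108445260-108445439, minus strand) is shown because its peak, like that of Gars, ranked low in WT and higher in both mutants, yet it had none of these 5 motifs in this stretch. Farsa (chr8:84856806-84856985, plus strand) had a peak in KI alone, and Vars2 (chr17:35667593-35667772, minus strand) had none in KO.
Aars: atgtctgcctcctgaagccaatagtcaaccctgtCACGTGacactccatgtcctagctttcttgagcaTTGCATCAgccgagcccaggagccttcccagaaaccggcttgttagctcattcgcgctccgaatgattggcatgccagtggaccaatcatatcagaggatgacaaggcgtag
Gars: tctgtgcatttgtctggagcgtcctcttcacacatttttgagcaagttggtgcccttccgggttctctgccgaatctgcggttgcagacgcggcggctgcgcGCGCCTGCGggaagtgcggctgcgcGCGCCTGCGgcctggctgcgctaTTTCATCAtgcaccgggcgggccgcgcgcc
Tars: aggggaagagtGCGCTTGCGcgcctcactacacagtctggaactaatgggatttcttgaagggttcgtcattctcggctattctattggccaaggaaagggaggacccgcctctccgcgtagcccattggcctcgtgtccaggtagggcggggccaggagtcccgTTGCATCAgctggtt
Sars: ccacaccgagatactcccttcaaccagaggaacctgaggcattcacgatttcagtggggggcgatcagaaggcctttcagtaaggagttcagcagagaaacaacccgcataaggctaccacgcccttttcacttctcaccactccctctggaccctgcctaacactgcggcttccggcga
Farsa: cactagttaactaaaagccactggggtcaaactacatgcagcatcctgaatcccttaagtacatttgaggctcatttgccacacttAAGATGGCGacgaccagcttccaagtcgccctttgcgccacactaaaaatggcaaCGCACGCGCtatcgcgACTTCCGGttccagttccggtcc
Vars2: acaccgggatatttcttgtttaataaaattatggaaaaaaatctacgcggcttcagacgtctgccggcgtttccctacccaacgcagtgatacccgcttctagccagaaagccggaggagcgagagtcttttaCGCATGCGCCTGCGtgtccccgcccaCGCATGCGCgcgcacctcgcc

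Most synthetase genes lay at open chromatin in all 3 lists. Of the 36 genes, 28 had a gene-end peak in KO, 33 in KI and 33 in WT, which is 77.8% in KO, 91.7% in KI and 91.7% in WT. Over all protein-coding genes the shares were 44.1% in KO, 51.4% in KI and 44.2% in WT. After the peaks were moved by 1 Mb, 3 members had a gene-end peak in KO, 3 in KI and 4 in WT (8.33%, 8.33% and 11.1%), against 4.82%, 7.25% and 4.63% of all protein-coding genes. The cytosolic enzymes had one at 16, 19 and 18 of 20 genes in KO, KI and WT, and the mitochondrial enzymes at 12, 14 and 15 of 16. The ribosomal protein genes, the other large set of constitutive translation genes, stood close to this: 62, 73 and 65 of 76 cytosolic ones and 63, 70 and 61 of 78 mitochondrial ones had a gene-end peak in KO, KI and WT.

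Eprs and Tars2 had no gene-end peak in any list, but the RefSeq table puts their start sites 1627 and 1388 bp inside the annotated gene, and a peak spanned that start in each library. The Eprs start-site peak was 815 bp wide in KO, 1430 bp in KI and 1401 bp in WT, at percentiles 85.6, 89.9 and 85.6. At Tars2 the start-site peak was 372 bp in KO, 420 bp in KI and 429 bp in WT, at percentiles 46.6, 64.5 and 23.1. Counting a peak at a gene end or at a start site, 30 members had one in KO, 35 in KI and 35 in WT. The single gene without one was Pars2 in KI and Farsa in WT. Among the peaks nearest to the 1 kb limit, those on the Adat1 side of Kars lay just inside it. They began 982 bp away in KO, 996 bp in KI and 926 bp in WT. Just outside were the Eprs peaks of KI at 1061 bp and of WT at 1116 bp. A KO peak 1134 bp from Hars2 was also just outside, past the end of Hars2 that is away from Hars.

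The promoter table matched 27 of the 36 members, 13 cytosolic and 14 mitochondrial. It gave no start site for Cars, Hars, Lars, Nars, Rars, Vars, Wars, Hars2 and Pars2. Within 1 kb of the start site, 24 of these had a peak in KO, 27 in KI and 26 in WT, against 46.6% of 17492 protein-coding genes in KO, 53.8% in KI and 46.7% in WT. The highest-scoring start-site peak spanned the annotated start itself at 24 of 24 members in KO, 27 of 27 in KI and 26 of 26 in WT. Among all genes with a start-site peak it did so at 90.7% in KO, 89.9% in KI and 91.9% in WT.

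**Figure D1:**
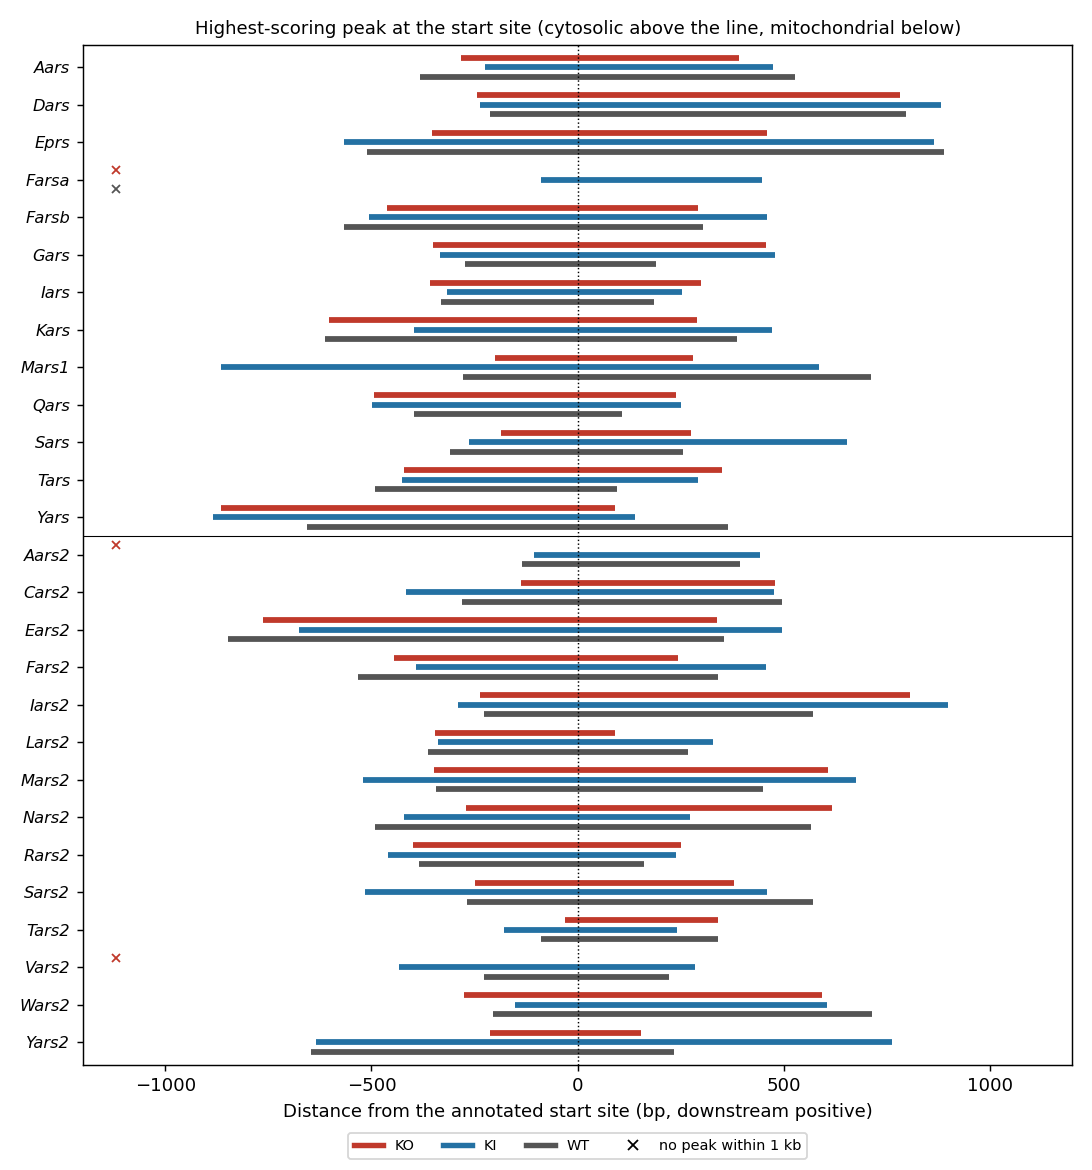
Extent of the highest-scoring peak within 1 kb of the annotated start site for the 27 members in the promoter table, in bp from the start site (dotted line), for KO, KI and WT; a cross marks a library with no such peak. Every bar spans the start, and the crosses mark Farsa in KO and WT and Aars2 and Vars2 in KO.

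Of the 33 members with a gene-end peak in WT, 5 had none in KO (15.2%), against 10.5% of all genes with a WT peak. They were Hars, Hars2, Vars, Pars2 and Vars2, which rest on 4 distinct WT peaks, since the annotated ends of Hars and Hars2 overlap on chromosome 18 and share 1 peak. None of the 3 members without a WT peak had one in KO, where 8.21% of all genes without a WT peak did. With only 3 such members, this 0 cannot be set against that share. In KI, 1 of the 33 was absent (3.29% of all genes), and 1 of the 3 members without a WT peak had one, against 15.5% of all such genes. Set against KI, 5 of 33 members with a KI peak had none in KO (Farsa, Hars, Hars2, Vars and Vars2), close to the 16.9% of all genes. None of the 3 members without a KI peak had one in KO (2.95% of all genes without a KI peak), again too few to compare.

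The histidine pair had the largest ratio of KI to WT width among members. The peak shared by Hars, the cytosolic histidyl enzyme, and Hars2, its mitochondrial counterpart, was absent in KO, 1103 bp wide at percentile 79.4 in KI, and 550 bp wide at percentile 55.7 in WT. The nearest KO peak lay 1134 bp past the end of Hars2 that is away from Hars, and not at the site of the shared peak. It was 10491 bp from Hars. Vars, the cytosolic valyl enzyme, likewise had no KO peak. Its KI peak (chr17:35000263-35001305) was 1043 bp wide at percentile 66.4 and its WT peak (chr17:35000279-35001118) 840 bp wide at percentile 47.3, and both were also within 1 kb of the neighbouring gene D17H6S56E-5. At Vars2, the mitochondrial valyl enzyme, KO had no peak, the KI peak (chr17:35667308-35668026) was 719 bp wide at percentile 50.7, and the WT peak (chr17:35667371-35667818) was 448 bp wide at percentile 16.8. Both valyl genes and both histidyl genes were thus without a peak in KO, with the KI peak wider than the WT peak at each. Over all genes, weak peaks were the ones most often missing: 43.0% of those in the lowest 25% of the WT list had none in KO, against 0.683% in the highest 25%. Of the 5 members missing from KO, 3 (Hars, Hars2 and Pars2) stood between percentiles 50 and 75 in WT. That was 3 of 9 members there against 6.05% of all genes, with the peak shared by Hars and Hars2 counted for both. None of the 16 members in the highest 25% of the WT list was missing from KO or from KI.

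Pars2, the mitochondrial prolyl enzyme, was the member absent from both mutants. Its WT peak (chr4:106650756-106651326) spanned the annotated low end of the gene, was 571 bp wide and stood at percentile 74.0. The nearest peak lay 89841 bp from the gene in KO and 23447 bp in KI. Among all protein-coding genes, 235 had a WT gene-end peak and none in either mutant, and by WT score Pars2 was number 10 of them. Of the 1407 genes whose WT peak stood between percentiles 70 and 80, 1 was absent from both mutants, and that gene was Pars2, around whose value the range was chosen.

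Farsa, the alpha subunit of the cytosolic phenylalanyl enzyme, was the reverse case. Its peak (chr8:84856897-84857433) was listed in KI alone, 537 bp wide at percentile 56.9, and it spanned the start site. The nearest KO peak was 2874 bp from the gene and the nearest WT peak 8845 bp. Farsb, which encodes the beta subunit of the same enzyme, had a peak of 756 bp in KO, 968 bp in KI and 870 bp in WT, at percentiles 81.8, 81.4 and 81.7. One subunit gene was thus open in 3 lists and the other in 1. At start sites, 2 of the 26 members with a peak in WT, Aars2 and Vars2, had none in KO (9.79% of all genes). None of the 26 lacked one in KI (2.72%). Farsa was the only member without a start-site peak in WT. It had one in KI (15.6% of all genes without a WT start-site peak) and none in KO (8.36% had one). All 27 members had a start-site peak in KI, so none could have one in KO without one in KI (2.62% of all genes without a KI start-site peak). Farsa, Aars2 and Vars2 had one in KI and none in KO. That was 3 of 27 members, where 15.6% of all genes with a KI start-site peak had none in KO. The Aars2 start-site peak lay 3317 bp inside the gene and was absent in KO, 548 bp wide in KI and 529 bp wide in WT.

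The strength of the peaks was read within each list. In KO the median percentile was 80.7 for the 16 cytosolic and 85.0 for the 12 mitochondrial members with a peak, against 72.0 for all genes with one. In KI it was 80.7 and 88.2 for the cytosolic and mitochondrial members, and 78.2 for all genes. In WT the cytosolic median was 73.6, the mitochondrial one 75.4 and that of all genes 69.5. Each of these medians was above that of all genes in its list, but the members spread widely, and the 95% interval of the WT cytosolic median ran from 47.3 to 82.3 (an order-statistic interval over genes, which are not replicates). Vars2, Aars2 and Sars, among others, were below the WT median of all genes. At start sites the cytosolic median was 81.5 in KO, 81.4 in KI and 76.1 in WT, and the mitochondrial one 77.1, 87.9 and 74.9. There the mitochondrial median was the higher in KI alone.

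**Figure D2:**
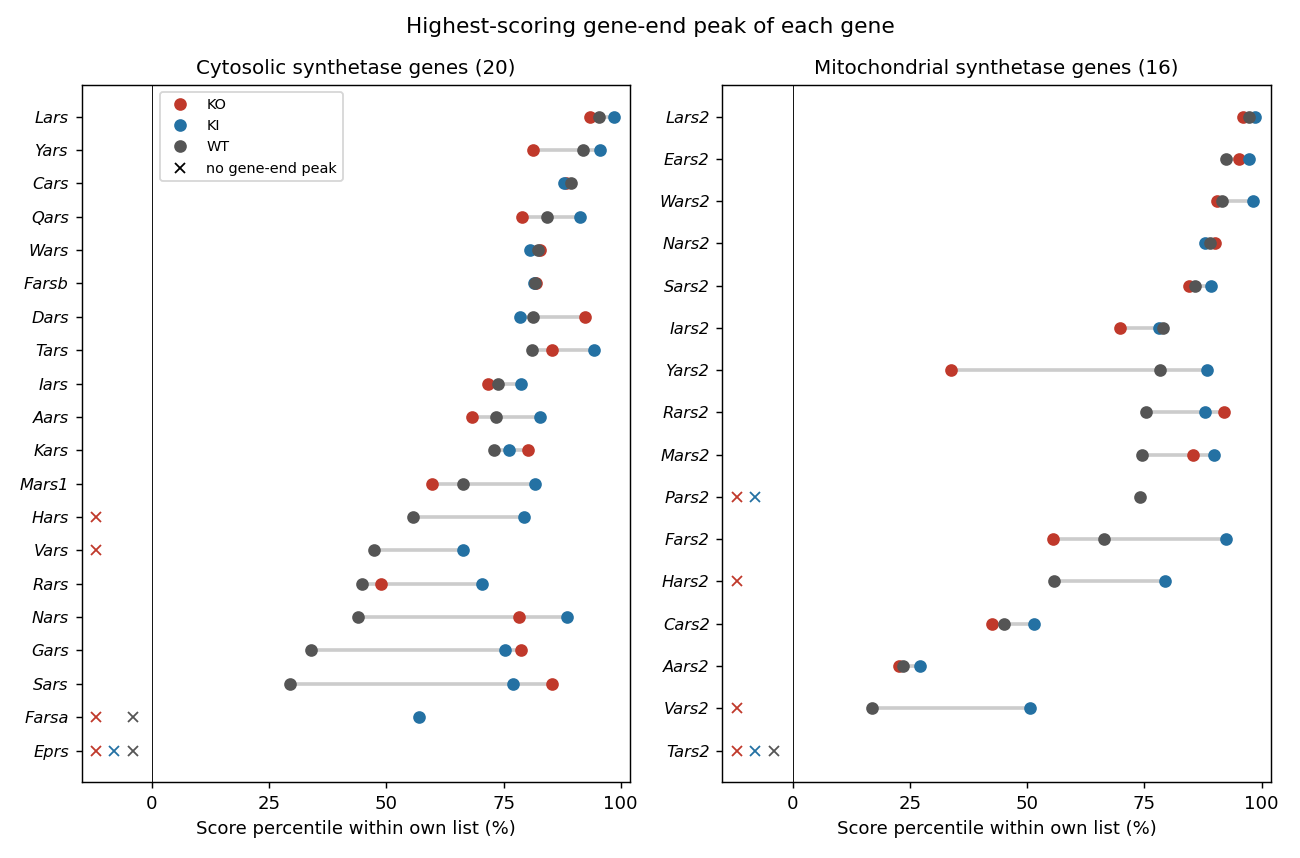
Score percentile of the highest-scoring gene-end peak of each member within its own list (x axis, %), for KO, KI and WT, in the order of the WT percentile; crosses left of 0 mark a library without a gene-end peak. Lars and Lars2 lie at the upper end in all 3 libraries, Aars2 at the lower end, and Sars, Gars and Nars lie well to the left in WT only.

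The highest WT percentiles among the cytosolic enzymes belonged to Lars (leucyl), Yars (tyrosyl) and Cars (cysteinyl). Lars stood at 93.4 in KO, 98.5 in KI and 95.4 in WT. Yars (peak at chr4:129189246-129190267 in WT, also within 1 kb of S100pbp) stood at 81.2 in KO, 95.6 in KI and 92.0 in WT. Cars (chr7:143599681-143600571 in WT) stood at 88.3, 88.0 and 89.4. Among the mitochondrial enzymes the highest were Lars2 (leucyl), Ears2 (glutamyl) and Wars2 (tryptophanyl). Ears2 (chr7:122066730-122067933 in WT, shared with Ubfd1) stood at 95.3 in KO, 97.4 in KI and 92.3 in WT, and Wars2 (chr3:99140884-99141804) at 90.4, 98.3 and 91.5. These peaks stood above percentile 80 in every list, Yars in KO being the lowest. Of the 28 members with a peak in all 3 lists, Aars2 (alanyl, chr17:45503499-45503956 in WT) was the lowest in each, at 22.8, 27.2 and 23.5. This Aars2 peak lay 2876 bp from the annotated start in WT. The Aars2 start-site peak stood at 68.1 in KI and 54.3 in WT and was absent in KO. Cars2 (cysteinyl, chr8:11550275-11551051 in WT) was also low throughout, at 42.5 in KO, 51.5 in KI and 45.1 in WT.

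Lars2 had a peak at each end. Its highest-scoring peak lay on the side away from the start, at percentiles 96.1 in KO, 98.5 in KI and 97.4 in WT, and began at the same base, chr9:123461800, in all 3 lists. Of the 12442 WT peaks overlapped in both mutants, 4 began at the same base in all 3 lists. The Lars2 start-site peak was weaker, at 15.9 in KO, 71.9 in KI and 54.2 in WT, with widths of 437, 669 and 631 bp.

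Sars (seryl), Gars (glycyl) and Nars (asparaginyl), the 3 lowest cytosolic enzymes of the WT list, stood in the highest 25% of both mutant lists. The Sars peak stood at percentile 85.4 in KO, 77.1 in KI and 29.5 in WT, with widths of 461, 918 and 566 bp (chr3:108445004-108445569 in WT). The Gars peak stood at 78.8, 75.4 and 34.0, with widths of 807, 813 and 464 bp (chr6:55037727-55038190 in WT). Nars stood at 78.3, 88.5 and 44.0, with widths of 554, 530 and 684 bp. This set was singled out after its values were seen: of the 6 members with a peak in all 3 lists and a WT percentile under 50, 3 were at 75 or above in both mutants, against 4.54% of the 1850 genes with a WT percentile that low. The lists differ in length, which moves percentiles. With each list cut to its 17316 best peaks, the length of the WT list, Sars stood at 83.8 in KO, 62.5 in KI and 29.5 in WT, Gars at 76.5, 59.7 and 34.0, and Nars at 76.0, 81.2 and 44.0, and Nars alone met the same limits, 1 of 5 members against 1.30% of genes. Places among the 28 members with a peak in all lists do not depend on length. Sars was number 11 in KO, 23 in KI and 27 in WT, Gars number 18, 25 and 26, and Nars number 19, 11 and 25. In KI, Gars and Sars were therefore still among the lowest members.

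Other members took different places in single libraries. Yars2 (mitochondrial tyrosyl) stood at percentile 33.7 in KO, 88.4 in KI and 78.3 in WT, and was number 27, 12 and 15 of the 28. Fars2 (mitochondrial phenylalanyl, peak shared with Lyrm4) stood at 55.5, 92.4 and 66.4, and was number 24, 7 and 21. Dars (aspartyl) stood at 92.5, 78.6 and 81.4, and was number 4, 21 and 12. Yars2 was thus low in KO, Fars2 high in KI, and Dars high in KO, each against the other libraries.

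Where an amino acid has a gene for each compartment, neither compartment was the stronger throughout. Among 17 such pairs, the cytosolic gene had the higher percentile in 6 in KO, 7 in KI and 5 in WT, and the mitochondrial gene in 5, 6 and 7. In the other pairs a peak was missing or, at Hars and Hars2, shared. The alanyl and cysteinyl pairs had the cytosolic gene higher in all 3 lists, with Aars at 68.3, 82.8 and 73.5 in KO, KI and WT beside the Aars2 values above. Neither alanyl peak lay at a start site: in WT that of Aars was 22141 bp from its start and that of Aars2 2876 bp. At start sites Aars stood at 92.3 in KI and 78.5 in WT, and Aars2 at 68.1 and 54.3. The methionyl pair was the other way round: Mars1 stood at 59.8, 81.7 and 66.3 and Mars2 at 85.4, 89.8 and 74.4.

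The median width was 739.5 bp in KO, 869 bp in KI and 808.5 bp in WT for cytosolic members, and 671, 871 and 793 bp for mitochondrial members. Over all genes with a gene-end peak it was 684 bp in KO, 762 bp in KI and 739 bp in WT. Because the lists differ in width as a whole, each member's ratio was divided by the median ratio of all genes (0.942 for KO over WT and 1.08 for KI over WT), and a ratio of 1.5 or more either way was counted. In KO, 1 of 28 members was wider than in WT (Gars, 9.27% of all genes) and 6 were narrower (Aars, Kars, Lars, Mars1, Qars and Yars2, 11.9% of all genes). In KI, 5 of 32 were wider (Aars, Gars, Hars, Hars2 and Sars, 11.1% of all genes) and 1 was narrower (Nars2, 9.63% of all genes). The peak shared by Hars and Hars2 is counted for both.

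**Figure D3:**
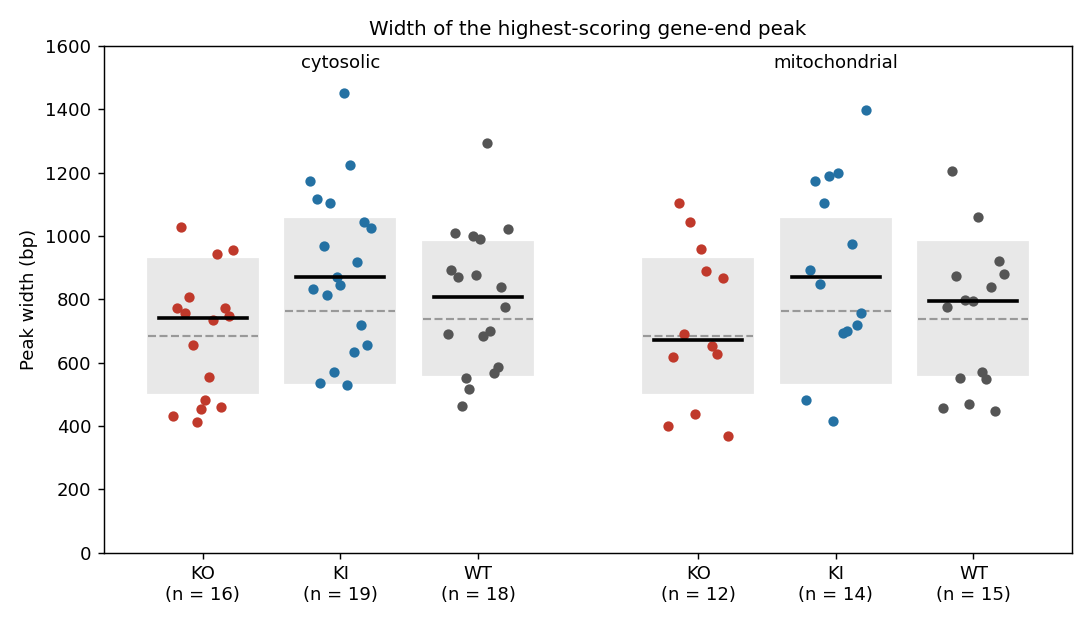
Width in bp of the highest-scoring gene-end peak of each cytosolic and mitochondrial member (points) in KO, KI and WT; black lines are medians, grey boxes span the middle 50% of all protein-coding genes with a gene-end peak, and dashed lines are their medians. The members spread across and beyond the boxes in every library, and KI holds the widest peak of either compartment, at Mars1 (1452 bp) and at Yars2 (1398 bp).

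Part of this list of narrower peaks compares different sites. At Kars (lysyl) the highest-scoring KO peak was the 413 bp peak on the Adat1 side, while in WT it was the 999 bp peak at the start site, shared with Terf2ip. At Qars (glutaminyl) the start-site peak of 733 bp stood highest in KO, and the 1294 bp peak on the Qrich1 side in WT. At the start sites themselves Kars had 895 bp in KO, 869 bp in KI and 999 bp in WT, and Qars 733, 751 and 505 bp. Compared at start sites, 2 of 24 members were wider in KO than in WT (Gars and Qars, 9.2% of all genes) and 3 narrower (Eprs, Mars1 and Yars2, 11.3%). In KI, Gars was the 1 member of 26 that was wider (10.8%) and Nars2 the 1 that was narrower (9.77%).

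Mars1 and Yars2 had their narrowest peak in KO and their widest in KI. The Mars1 peak spanned 482 bp in KO, 1452 bp in KI and 989 bp in WT, and that of Yars2 367, 1398 and 881 bp. At Yars2 a second KO peak (chr16:16303173-16303683) lay beside the first (chr16:16302753-16303119), and the 2 together covered 878 bp, against 881 bp in WT. Most of the second KO peak lay beyond the WT peak (chr16:16302319-16303199). The KI peak (chr16:16302330-16303727) spanned both KO peaks. At Eprs a second KO peak brought the covered length to 1216 bp. Mars1 had no second peak.

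Among the 7 complex members with a peak in all lists, 4 were called narrower in KO than in WT, against 11.9% of all genes. These were Kars, Lars, Mars1 and Qars. The median ratio of the 7 was 0.601 relative to all genes, which is the value of Qars. Outside the complex 1 of 9 cytosolic members was narrower (Aars), with a median of 0.923. Kars and Qars are the 2 whose peaks lie at different sites, so their ratios, and the median, do not compare the same site. At start sites Mars1 and Eprs were the complex members called narrower. There Qars was called wider, at 1.54 relative to all genes, and Kars stood at 0.949. Lars, whose peaks overlapped in all 3 lists, spanned 453 bp in KO, 845 bp in KI and 876 bp in WT. In KI none of the 7 passed the limit either way. The genes of the 3 scaffold proteins that hold the complex together had a gene-end peak in all lists.

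The motifs were searched in windows from 250 bases before to 50 after the start. The ATF4 composite was found in 5 of 13 cytosolic promoters (Aars, Gars, Iars, Tars and Yars) and in 0 of 14 mitochondrial ones, against 4.13% of 17492 promoters of protein-coding genes and 2.47% of the 8173 with a WT start-site peak. The matches lay upstream in Aars, Gars and Tars, whose sequences are printed above, beginning 112, 30 and 15 bases before the start. In Iars and Yars, and in a further copy in Aars, the match lay just after the start. These 5 promoters had start-site peaks in all 3 lists. Their percentiles in KO, KI and WT were 89.4, 92.3 and 78.5 at Aars, whose start lies 6064 bp inside the annotated gene, 71.6, 78.7 and 73.8 at Iars, and 85.4, 94.4 and 81.2 at Tars. The values at Gars and Yars are given above.

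NRF1, a regulator of nuclear genes for mitochondrial proteins, had its motif in 6 of 13 cytosolic and 4 of 14 mitochondrial promoters, against 9.68% of all promoters and 17.0% of those with a WT start-site peak. The matches were in Farsa, Farsb, Gars, Kars, Mars1 and Tars among cytosolic genes and in Iars2, Mars2, Vars2 and Wars2 among mitochondrial ones. Vars2 held 3 matches, 2 of which overlap. The YY1 motif was in Farsa, Aars2, Wars2 and Yars2 (2.14% of all promoters and 4.0% of those with a WT start-site peak), the E-box in Aars, Farsb, Iars, Tars and Ears2 (8.91% and 12.3%), and the ETS motif in Farsa, Mars1 and Rars2 (5.69% and 9.92%). The cAMP response element TGACGTCA was in 0 of 27, against 2.54% of all promoters and 4.07% of those with a WT start-site peak. The common motifs CCAAT (NFY) and GGGCGG (Sp) were in 13 (48.1%) and 19 (70.4%) of 27, against 42.3% and 49.2% of all promoters and 45.2% and 72.8% of those with a WT start-site peak. No match of 1 motif overlapped a match of another. Such matches are descriptions of letters and not of binding.

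**Figure D4:**
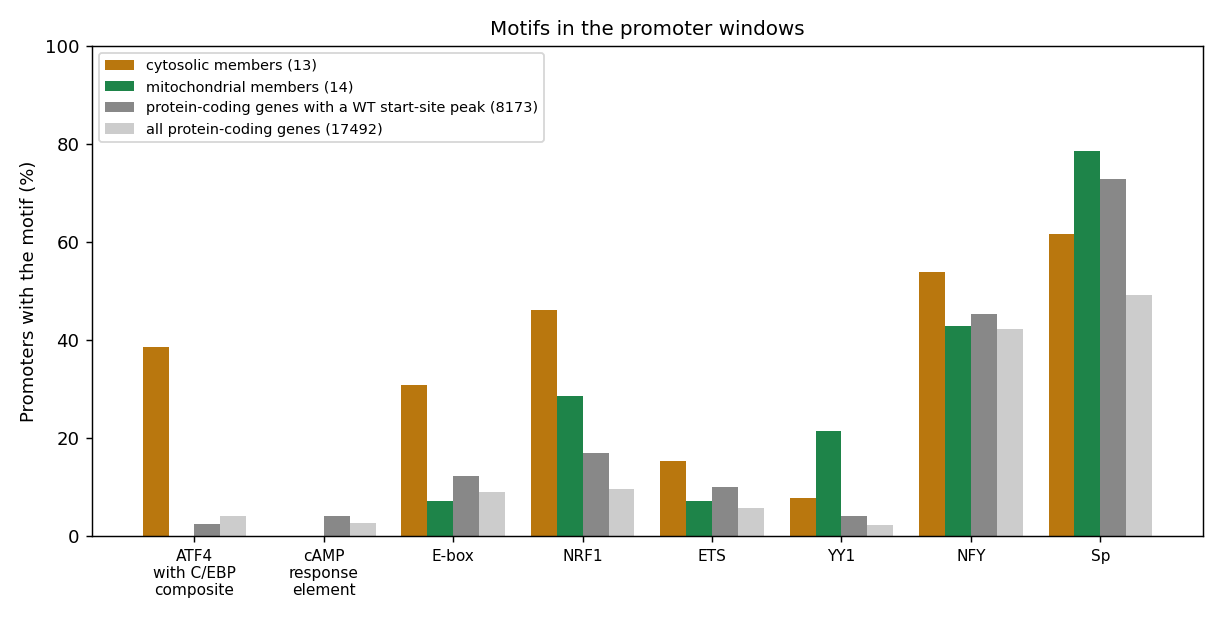
Share of promoters (y axis, %) with each motif on either strand, for cytosolic members (13), mitochondrial members (14), protein-coding genes with a WT start-site peak (8173) and all protein-coding genes (17492). The ATF4 composite stands at 38.5% of cytosolic and 0% of mitochondrial promoters.

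Many gene-end peaks also lay within 1 kb of an end of a second gene. In WT these peaks were at Wars with Wdr25 (chr12:108893845-108894621), Kars with Terf2ip (chr8:112010968-112011966), Fars2 with Lyrm4 (chr13:36117110-36117984) and Iars2 with Bpnt1 (chr1:185328830-185329627). Further ones were at Rars2 with Orc3 (chr4:34614573-34615119) and Sars2 with Mrps12, a mitochondrial ribosomal protein gene (chr7:28741700-28742538). Vars2 shared its WT peak with Gtf2h4, besides Hars with Hars2, Vars with D17H6S56E-5, Yars with S100pbp and Ears2 with Ubfd1 as above. At Aars the highest-scoring gene-end peak lay on the Exosc6 side (chr8:111055983-111056672 in WT), 578 bp past the gene in KO, 447 bp in KI and 414 bp in WT, and the Qars peak on the Qrich1 side was at chr9:108516569-108517862 in WT. A peak of this kind cannot be assigned to 1 of the 2 genes.

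Inside the genes, beyond 1 kb of either end, few peaks were listed: 6 in KO, 11 in KI and 5 in WT over all members. Per 100 kb of such sequence this was 0.394 in KO, 0.723 in KI and 0.328 in WT, below the 0.576, 0.968 and 0.484 of all protein-coding genes. Several of these were the start-site peaks of Aars, Aars2, Eprs and Tars2. Cars had an inner peak in KO (chr7:143565444-143565873, 430 bp) and in KI (chr7:143565278-143566025, 748 bp, percentile 81.3) and none in WT. Fars2 had one inside the gene in all 3 lists, 82855 bp from its start in KO, 82630 bp in KI and 82865 bp in WT.

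The other genes of the pathway had peaks in most cases too. Of 8 other aminoacylation enzymes, 6 had a gene-end peak in KO, 7 in KI and 7 in WT. Gatc, a subunit of the mitochondrial glutaminyl-tRNA amidotransferase, was absent in KO, at percentile 27.8 in KI and at 32.5 in WT. Mtfmt, which formylates the mitochondrial initiator transfer RNA, was absent in both mutants and at percentile 31.1 in WT. Sepsecs, of selenocysteine synthesis, was at 69.0 in KO and 72.3 in KI and absent in WT. Of 25 genes of the integrated stress response, the pathway of ATF4, 21 had a peak in KO, 22 in KI and 22 in WT. Nupr1, Shmt2 and Slc7a11 had none in any list, and the 1 gene with a peak in WT and none in KO was Phgdh, the first enzyme of serine synthesis, which had a peak of 1606 bp at percentile 74.3 in KI and of 599 bp at 29.0 in WT. RNA polymerase III genes, which make transfer RNA, had peaks at 12, 14 and 14 of 14 genes in KO, KI and WT, and Bdp1 and Polr3a were those absent in KO. Genes for editing had peaks at 4 of 5 and those for maturation and export of transfer RNA at 5 of 5 in each list. As among all genes, more synthetase genes lacked a peak in KO than in KI.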

How the data were processed

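ATAC-seq peak lists of 3 libraries (KO, KI and WT, 1 each) were used. The authors called peaks per library, since each list belongs to 1 library, and deposited 5 columns without a header. The deposited score in column 5 was taken as that of MACS (10 times −log10 of a p-value, lowest value 50), because the peaks carry MACS names. It was not compared between lists, except that the alternative with a score of at least 100 set the same floor in every list. The build mm10 and the tool CASAVA come from the submitters' processing notes. Not given in the sources used here: aligner, MACS version, duplicate handling, read shift and filters.

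Gene ends came from RefSeq (GRCm38.p6), and start sites with 250 bases before and 50 after from its promoter table, which matched 27 of 36 members. A gene-end peak lay within 1 kb of either end, and the highest-scoring one was taken. With 1 library per genotype no test was made. Counts and medians stand beside those of all protein-coding genes. Alternatives were windows of 500 and 2500 bp, equal list size, a score of at least 100, the nearest or the widest peak, total covered length, absence judged by an overlap of 1 bp or of 50% of the peak, leaving out shared peaks or Gars and Kars, and start sites, the last added after the data were seen. Every member could be named. Coordinates were given for members present in some lists only, the 3 highest and 3 lowest in WT per compartment and those sharing a peak, except on chromosome 18. Members and lists were chosen with earlier results of these data known. The counting was tested on simulated peaks. Python 3.11.15, pandas 2.3.3 and NumPy 2.4.6 were used.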

Additional observations from a re-analysis of the deposited data

Results flagged for a closer look

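The width of the Aars gene-end peak was singled out because it moved in opposite directions in the mutants: 0.662 times the WT width in KO and 1.58 times in KI, each relative to the median of all genes. The widths were 430 bp in KO, 1174 bp in KI and 690 bp in WT. The difference was not tested, and the peak lies on the side of Exosc6. At the Aars start site the peak was 676 bp wide in KO, 699 bp in KI and 912 bp in WT, so the KI width was below that of WT there.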

How the results depend on the processing

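Of 153 values under alternatives, 144 stayed within the spread or the 1.5-fold limit set for them and 9 moved, over 31 results. A count that stayed could still hold other genes. With scores of at least 100, members with a peak in WT and none in KO numbered 5. Fars2 and Yars2 then stood in place of Vars and Vars2. With a window of 2500 bp they numbered 4, without Hars2. Where sharing needed an overlap of 50% of the peak they numbered 7, with Mars1 and Yars2 added. At start sites, members with a peak in WT and none in KO numbered 2, those in WT and not in KI 0, and those in KI and not in KO 3, over 27 members instead of 36. Hars, Hars2, Vars and Pars2 are not in the promoter table, so their absences could not be judged at start sites. With scores of at least 100, members with a peak in KO and none in WT numbered 3 and in KI and none in WT 6. Where sharing needed an overlap of 50% of the peak, 3 were in KI and not in WT. At equal list size 2 were in WT and not in KI, 1 was in KO and not in KI, and the median percentile of cytosolic members in KI was 68.4, in lists of 17316 peaks each. The cause of the other moves was not tested. No paired analysis was possible because each genotype had 1 ATAC-seq library. Depth is unknown, so a missing peak cannot be told apart from a weaker library.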
